A study of Rattus norvegicus with 8 samples.

Results

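Gfap, Aqp4, Glul, S100b, Gja1, Vim and Agt are genes whose transcripts are usually read as astrocyte transcripts, and here their probes were followed in pools of captured hippocampal neurons. They were taken from the array files by gene name: every probe that was not a control spot and whose name was 1 of these 7 symbols, after the endings _predicted and _mapped were removed and case was ignored. This gave 7 genes of 18365 distinct gene names, and 10 probes of 41012. The study compared neurons of the CA3 subfield of Sprague-Dawley rats, cut singly by laser capture from frozen coronal sections stained with Fluoro-Jade, a dye taken up by degenerating neurons. Injured rats received a moderate fluid percussion brain injury, and their brains were taken 24 hours later; Fluoro-Jade-negative neurons of these rats formed the surviving pools and Fluoro-Jade-positive neurons the dying pools. Each injured pool held about 600 neurons from at least 3 rats. Sham rats had a sham injury, and naive rats had no treatment. Each of the 4 groups had 2 arrays.

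Poly(A)+ RNA of each pool was amplified over more than 1 round and hybridised in a single colour. The labels name Arcturus RiboAmp HS or, alternatively, MessageAMP II as the amplification reagents, and they do not say which pool received which. The 4 naive and sham arrays lay on 1 slide and the 4 surviving and dying arrays on another, each slide with its own scan, so for every comparison with sham, injury and slide cannot be told apart. The median processed signal was 27.2 and 22.7 on naive arrays 1 and 2, 16.5 and 16.4 on the sham arrays, 52.2 and 48.2 on the surviving arrays, and 19.2 and 52.6 on the dying arrays. Dying array 1 was thus nearer to the sham arrays in brightness than to dying array 2. The naive arrays had 22449 and 22391 probes well above background, the sham arrays 20911 and 20193, the surviving arrays 29347 and 27081, and the dying arrays 24064 and 27997. No probe spot was saturated. Levels below are log2 of a probe's processed signal over its array's median, so 0 is the median probe of that array. The number of arrays limits the precision of every value.

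Astrocytes take up glutamate and convert it to glutamine, hold water and potassium in balance through channels and gap junctions, and fill the space around the cell bodies and synapses of neurons. After brain injury they become reactive, and greater Gfap and Vim is the usual mark of that state. Pyramidal neurons hold little of most of these transcripts, so in captured neurons they are also read as a measure of how much neighbouring tissue came along. The neuron label was borne out in part by its markers. Of 19 pyramidal neuron genes, 15 had a probe, 0 of the 15 stayed below background on all arrays, and 9 were well above it on every array. The summed level of the 12 that had a usable spot on every array, in multiples of the array median, was 6006 and 8510 in naive pools, 11354 and 9832 in sham pools, 6263 and 6047 in surviving pools, and 3094 and 3370 in dying pools. Most of that sum came from Nrgn, and without it dying pool 1 had 134, against 461 in dying pool 2 and 521 to 2776 in the others. Markers of other cell types were present as well, and they are given with the results.

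Comparing surviving with dying neurons asks what separates neurons with different fates in the same injured tissue; comparing each with sham asks what followed the injury; comparing sham with naive asks what the surgery alone did. The surviving and dying comparisons with sham share the same sham arrays. A probe entered a comparison if either group had it well above background on each of its arrays, and 6 of the 7 genes and 8 of the 10 probes qualified in each. With limma, surviving against dying gave 0 of 27393 probes past an adjusted p of 0.05 (0%), and 5898 at an unadjusted p under 0.05; 0 of the 8 tested astrocyte probes were called there, while 2 passed before adjustment. With dying array 2 left out, the same comparison gave 6002 calls, 2 of them astrocyte probes. Surviving against sham gave 5075 calls among 26909 probes (18.9%), and 2 of 8 astrocyte probes were among them; without any 1 of the sham or surviving arrays the calls numbered 253 to 513, with 1 astrocyte probe, and without either dying array 8557, with 5. Dying against sham gave 11289 calls among 25628 probes (44%), with 4 of 8 astrocyte probes; without sham array 1 or sham array 2 there were 3048 and 5170 calls, and 1 astrocyte probe in the former. Sham against naive gave 0 calls of 20679 (0%), 997 at an unadjusted p under 0.05, 1 of them an astrocyte probe, and 22 calls without either dying array, 0 of them astrocyte probes. The calls of astrocyte probes in the fit of all 8 arrays were toward lower signal; of those made when arrays were left out, those of Gfap were toward higher signal.

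How much of a difference from sham is read as lower depends on the scaling. Over all tested probes the median difference of surviving from sham was -0.43 on the log2 scale, and it became 0.36 with arrays scaled to their 75th percentile, 0.18 with quantile normalization and 0.55 with arrays scaled to the median of the probes above background. For dying against sham the median was -0.46, and 0.27, 0.21 and 0.55 under the same settings. The median over the 7 genes, each by its brightest probe, was -0.64 for surviving against sham, and it changed sign to 0.14 and 0.33 under the 75th percentile and the probes above background, and to 0.088 under normexp background correction with outlier spots removed. For dying against sham it was -0.97, the middle gene being Aqp4, whose difference became 0.033 with arrays scaled to the probes above background. For surviving against dying the 7 genes had a median of 0.28, beside 0.14 over all tested probes. Normexp as first planned was upset by a few spots and ended every call against sham; it is left aside wherever settings are counted or ranges given.

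Gfap and Vim encode intermediate filament proteins, Gfap the main filament of astrocytes and Vim a filament also made by immature glia, endothelium and microglia. Of the 7 genes, 6 have an entry in the RefSeq promoter table, Agt being the other. The promoters of Gfap and Vim, whose signals moved together across the injured pools, are shown as 300 bases around the start, most of them before it, in the GRCr8 build: Gfap on the minus strand of chr10:88361612-88361911 and Vim on the plus strand of chr17:81577011-81577310. Capitals mark matches, on either strand, to 4 motifs. Of 33469 RefSeq promoters of that length, the TATA box letters TATAAA are in 14.2%, the CCAAT box in 37.5%, the AP-1 letters TGANTCA in 7.33%, and the STAT letters TTCNNNGAA in 8.87%. The motifs did not overlap in the windows shown.
Gfap promoter: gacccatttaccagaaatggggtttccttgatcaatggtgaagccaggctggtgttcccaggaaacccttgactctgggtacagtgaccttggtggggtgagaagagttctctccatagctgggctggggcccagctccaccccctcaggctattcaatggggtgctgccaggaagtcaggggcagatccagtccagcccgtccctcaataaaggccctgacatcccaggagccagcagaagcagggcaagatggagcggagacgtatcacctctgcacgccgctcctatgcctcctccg
Vim promoter: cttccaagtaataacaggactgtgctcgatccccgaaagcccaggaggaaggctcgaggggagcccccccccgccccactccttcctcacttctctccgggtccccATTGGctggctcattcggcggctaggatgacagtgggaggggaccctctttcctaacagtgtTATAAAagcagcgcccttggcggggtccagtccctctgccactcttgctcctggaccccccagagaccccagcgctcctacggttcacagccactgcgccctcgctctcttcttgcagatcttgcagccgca
The Gfap window held none of the 4 motifs. The Vim window held 1 TATAAA and 1 CCAAT, the latter on the opposite strand as ATTGG. A match is a description of letters and not a binding site.

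The Gfap probe, printed as 10 spots on each array, had levels of 1.43 and 2.10 in naive pools, 1.75 and 1.58 in sham pools, 3.57 and 2.73 in surviving pools, and 1.10 and 3.62 in dying pools. Both surviving pools and dying pool 2 were high, and dying pool 1 was the lowest of the 8. Gfap was 2.8-fold higher in surviving than in sham pools, a difference of 1.49 (SE 0.80, adjusted p 0.212) with no overlap between the groups, and the test did not call it. It did pass when the widely spread dying arrays entered the variance less or not at all: the adjusted p was 0.0282 from the arrays compared alone and 0.0474 without either dying array. Between surviving and dying pools the difference was 0.79 (adjusted p 0.603), and it rested on which dying pool was used: it was -0.47 without dying pool 1 and 2.05 (adjusted p 0.0459) without dying pool 2. Likewise dying against sham was 0.70 (adjusted p 0.486), 1.96 (adjusted p 0.0456) without dying pool 1 and -0.57 without dying pool 2. The group means, with the SD over 2 arrays, were 3.15 ± 0.60 for surviving, 2.36 ± 1.78 for dying, 1.76 ± 0.47 for naive and 1.67 ± 0.12 for sham pools; dying pools did not part from any neighbour beyond their spread. In a pool of many cells, fewer cells of a type and less RNA per cell cannot be told apart, for Gfap as for the genes that follow.

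Vim had a single spot on each array, at -1.62 and 0.88 in naive pools, 1.28 and -0.62 in sham pools, 2.59 and 2.15 in surviving pools, and 0.65 and 3.53 in dying pools. It was not well above background in naive pool 1 and sham pool 2. As with Gfap, both surviving pools and dying pool 2 were high and dying pool 1 was below them. Surviving pools were above all 4 uninjured pools, by 2.03 over sham with sham pool 2 at its measured level (SE 1.15, adjusted p 0.233, and from 1.08 to 2.98 when an array was left out), a call made only from the arrays compared alone (adjusted p 0.0481). Dying against sham was 1.76 (adjusted p 0.229) with overlapping groups, and 3.20 without dying pool 1 and 0.31 without dying pool 2. The surviving and dying groups overlapped, with a difference of 0.28 (adjusted p 0.918) that was -1.16 without dying pool 1 and 1.72 without dying pool 2.

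**Figure D1:**
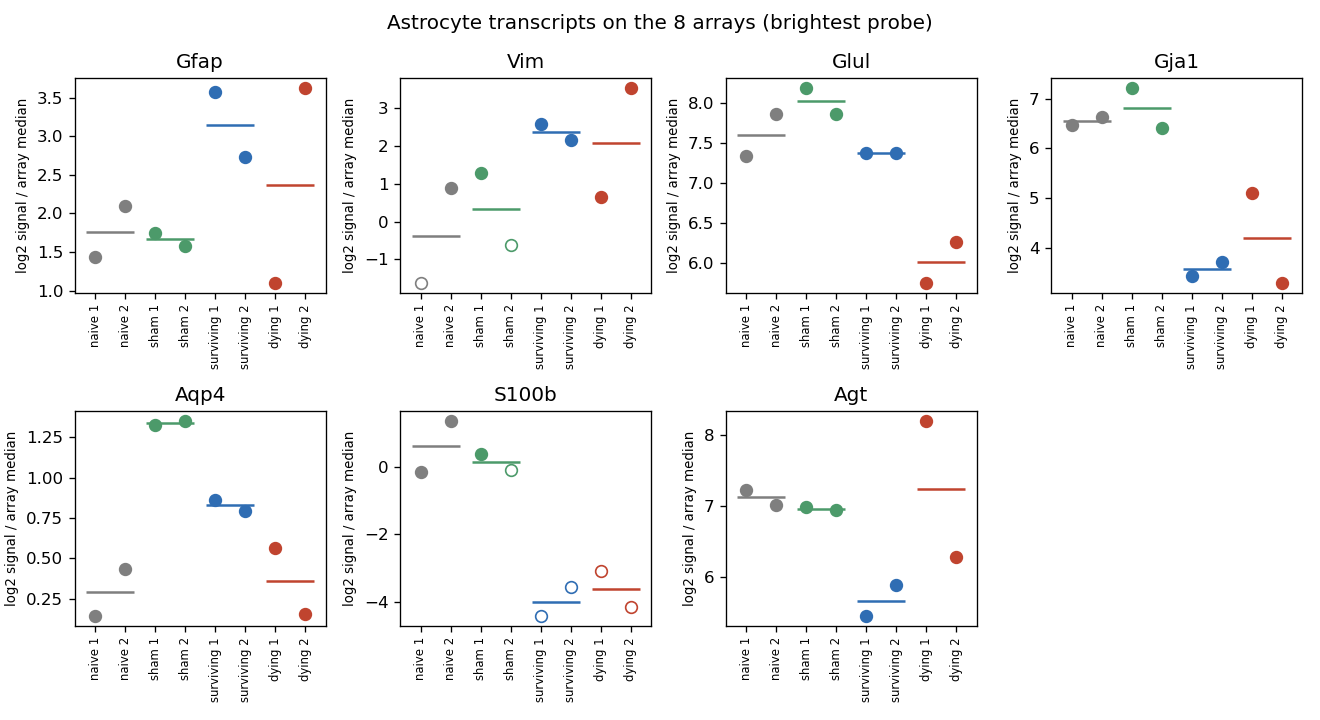
Log2 signal over the array median for the brightest probe of each of the 7 genes, with 1 point for each array, a line at each group's mean, and open points where the probe was not well above background. Gfap and Vim are high in both surviving pools and in dying pool 2. S100b is well above background in the naive pools and sham pool 1 alone. The dying pools stand apart from each other for Gfap, Vim, Gja1 and Agt.

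Glul encodes glutamine synthetase, which makes glutamine from glutamate and in the brain is mostly an astrocyte enzyme. It had 3 probes, 1 named by a RefSeq transcript (A_44_P1030714) and 2 by the same cDNA record (A_44_P381069, here cDNA probe A, and A_44_P458704, cDNA probe B), and only the RefSeq name was matched in the reference table. The RefSeq probe read 7.34 and 7.87 in naive pools, 8.19 and 7.86 in sham pools, 7.38 and 7.38 in surviving pools, and 5.75 and 6.27 in dying pools. Both dying pools lay below the other 6. cDNA probe A read 6.95 and 7.07 in naive pools, 7.81 and 7.20 in sham pools, 2.18 and 2.47 in surviving pools, and 2.39 and 3.08 in dying pools. Here all 4 injured pools lay far below all 4 uninjured pools, and surviving and dying overlapped. cDNA probe B read 3.29 and 4.14 in naive pools, 4.15 and 3.72 in sham pools, 2.21 and 2.01 in surviving pools, and 0.90 and 2.26 in dying pools, so it too separated injured from uninjured pools without parting surviving from dying.

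cDNA probe A fell by 5.18 on the log2 scale in surviving against sham pools, 36.2-fold (SE 0.47, adjusted p 0.00133), and by 4.77, 27.3-fold, in dying against sham pools (SE 0.47, adjusted p 0.000886). Both calls were made in all 12 settings counted for this probe, with adjusted p from 0.000443 to 0.00487 and from 0.000167 to 0.00676, and in all 8 runs that left out an array; the differences ran from -5.18 to -3.64 and from -4.78 to -3.49 over the settings. cDNA probe B was lower by 3.54-fold in surviving than in sham pools, short of the threshold (adjusted p 0.0637; called in 1 of 12 settings, at 0.0103, and in 2 of 8 runs without an array, with differences from -1.82 to -0.85 over the settings), and by 5.12-fold in dying than in sham pools, past it (SE 0.58, adjusted p 0.0144, called in 10 of 12 settings and in 5 of 8 runs without an array). The RefSeq probe was 4.03-fold lower in dying than in sham pools (SE 0.45, adjusted p 0.0104). That call ended with quantile normalization (adjusted p 0.102), with scaling to the probes above background (0.0545), with normexp without outlier spots (0.0646), without sham array 1 (0.0901) and without sham array 2 (0.0525). In surviving against sham pools the RefSeq probe differed by -0.64 (adjusted p 0.328), and the sign turned to 0.14 with the 75th percentile, 0.19 with quantile normalization, 0.33 with the probes above background and 0.44 with normexp. The probes of Glul therefore gave unlike sizes for the same comparison, and the differences between probes were not tested. The files give no sequence or position for the probes.

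**Figure D2:**
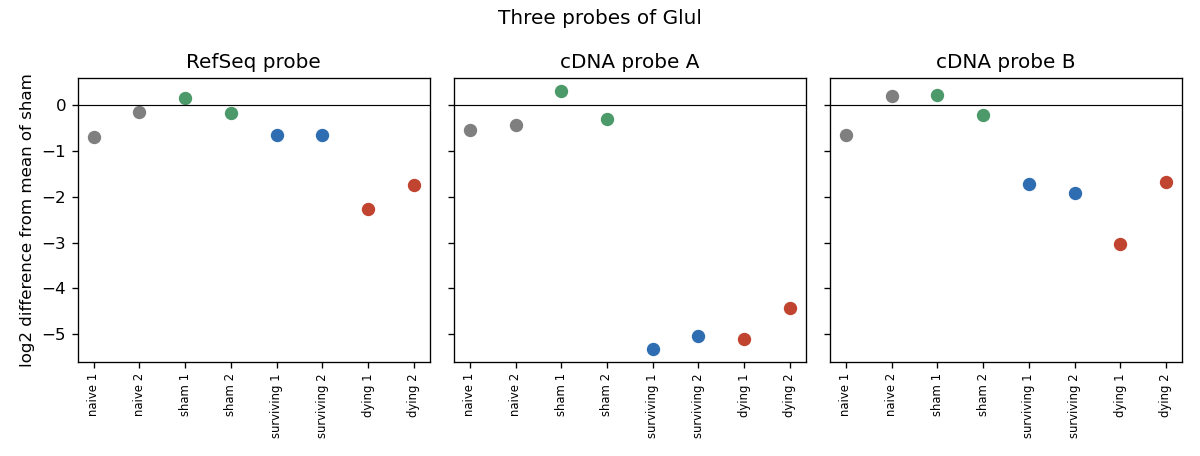
Log2 difference of each array from the mean of the sham arrays for the 3 Glul probes, with 1 point for each array. cDNA probe A is far lower in all 4 injured pools than in the uninjured ones, cDNA probe B by less, and the RefSeq probe places the surviving pools near sham, on a side that changes with the scaling.

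Between surviving and dying pools, the Glul RefSeq probe was 2.58-fold higher in surviving pools, a difference of 1.37 (SE 0.45) with no overlap, and its adjusted p of 0.154 did not pass. It ranged from 1.01 to 1.93 over 14 settings, called in 0, and from 1.11 to 1.63 when an array was left out. cDNA probe A differed by -0.41 (adjusted p 0.657) and cDNA probe B by 0.53 (adjusted p 0.633), each with overlapping groups.

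Gja1 encodes connexin 43, the main gap junction protein of astrocytes, and S100b a calcium-binding protein that astrocytes hold and release. Their promoters are shown because both were lower in every injured pool than in every uninjured pool; they are from the GRCr8 build of RefSeq, Gja1 on the plus strand of chr20:36302314-36302613 and S100b on the minus strand of chr20:12381032-12381331, with capitals as for Gfap and Vim.
Gja1 promoter: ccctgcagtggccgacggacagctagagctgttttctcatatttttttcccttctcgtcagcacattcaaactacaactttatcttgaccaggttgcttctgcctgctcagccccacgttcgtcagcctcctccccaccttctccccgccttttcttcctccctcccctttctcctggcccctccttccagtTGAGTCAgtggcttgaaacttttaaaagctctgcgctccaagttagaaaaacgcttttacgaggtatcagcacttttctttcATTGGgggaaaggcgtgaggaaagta
S100b promoter: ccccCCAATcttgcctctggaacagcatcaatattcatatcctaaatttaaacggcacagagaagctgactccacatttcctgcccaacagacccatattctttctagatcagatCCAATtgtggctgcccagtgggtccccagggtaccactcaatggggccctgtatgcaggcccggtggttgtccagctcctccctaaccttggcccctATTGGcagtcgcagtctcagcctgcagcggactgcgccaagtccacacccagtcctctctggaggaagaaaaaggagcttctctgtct
The Gja1 window held 1 TGANTCA, as TGAGTCA, and 1 CCAAT. The S100b window held 3 CCAAT matches, counted over both strands. TTCNNNGAA was in none of the windows shown, which says only that these letters are not in them.

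The Gja1 probe with 10 spots read 6.47 and 6.62 in naive pools, 7.21 and 6.40 in sham pools, 3.44 and 3.72 in surviving pools, and 5.11 and 3.29 in dying pools. The 4 injured pools were below the 4 uninjured pools, and dying pool 1 was the highest of the injured pools while dying pool 2 was the lowest. Gja1 was 9.39-fold lower in surviving than in sham pools (SE 0.65, adjusted p 0.0178). It was 6.09-fold lower in dying than in sham pools (SE 0.64, adjusted p 0.0144), and the groups did not overlap in either comparison. The call for surviving pools ended with quantile normalization, at -2.17 (adjusted p 0.0698), and without any 1 of the sham or surviving arrays, at -3.63 to -2.83 (adjusted p 0.0792 to 0.142). The call for dying pools ended with quantile normalization, at -1.43 (adjusted p 0.115), with scaling to the probes above background, at -1.60 (adjusted p 0.0608), and without sham array 1, at -2.20 (adjusted p 0.109). Gja1 stayed lower than sham in every setting counted, in both comparisons. Surviving and dying pools overlapped, with a difference of -0.62 (adjusted p 0.613) that was 0.28 without dying pool 1 and -1.53 without dying pool 2. A further Gja1 probe with 1 spot (A_44_P278604) was not well above background on any array and gave no fold.

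S100b was read by 10 spots on each array, at -0.15 and 1.35 in naive pools and 0.39 and -0.11 in sham pools; in sham pool 2, 4 of 10 spots were well above background. In surviving pools the readings were -4.42 and -3.57 and in dying pools -3.10 and -4.15, with 0 of 10 spots well above background on each of these 4 arrays. Uninjured and injured pools did not overlap. Because the injured values are bounds, the fold is a lower limit, set by the lowest signal well above background on each injured array: S100b was at least 4.30-fold lower in surviving than in sham pools and at least 3.61-fold lower in dying than in sham pools. The sham mean in these limits takes sham pool 2 at its measured level, although the probe was not well above background there, so they are limits only if that level holds. It did not qualify for the test in these comparisons, since 1 of the sham arrays was below background. They also hold only for scaling to the array median. The difference in surviving pools as measured, -4.14, was -3.19 with the 75th percentile, -3.48 with quantile normalization, -2.49 with the probes above background and -0.87 with normexp without outlier spots. In dying pools it was -3.77, and -3.04 with the 75th percentile, -2.41 with the probes above background, -0.69 with normexp and -2.99 in the authors' table. Surviving and dying pools were both below background, so no fold between them is given. The median over the 7 genes and the count of groups without overlap include the measured values.

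Aqp4 encodes the water channel aquaporin 4 of astrocyte end-feet. Its 10 spots averaged 0.14 and 0.43 in naive pools, 1.32 and 1.35 in sham pools, 0.86 and 0.79 in surviving pools, and 0.57 and 0.16 in dying pools. The sham pools were the highest, the surviving pools next, and the naive and dying pools overlapped at the bottom. Surviving pools exceeded dying pools by 0.46 (SE 0.43, adjusted p 0.560), a gap without overlap that did not pass. Dying pools were 0.97 below sham (adjusted p 0.0915), which became 0.033 above with scaling to the probes above background. Surviving pools were 0.51 below sham (adjusted p 0.405), and that sign turned to 0.27 with the 75th percentile, 0.46 with the probes above background and 0.088 with normexp. Sham pools exceeded naive pools by 1.05, or 2.07-fold, without overlap (adjusted p 0.882); it was the astrocyte probe with an unadjusted p under 0.05 there, and 4.82% of all tested probes had one. This difference ran from 0.30 to 1.09 over 13 settings.

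Agt encodes angiotensinogen, the precursor of the angiotensins, which in the brain is made chiefly by astrocytes. Its 10 spots averaged 7.22 and 7.02 in naive pools, 6.99 and 6.94 in sham pools, 5.46 and 5.89 in surviving pools, and 8.19 and 6.28 in dying pools. Surviving pools were the lowest, the uninjured pools lay close together, and the dying pools were on either side of them. Surviving pools were 2.96-fold below dying pools, a difference of -1.56 (SE 0.64, adjusted p 0.212) without overlap. Its size rested on the dying pool used: -0.61 without dying pool 1 and -2.52 (adjusted p 0.0164) without dying pool 2. Surviving pools were 2.44-fold below sham (adjusted p 0.180), which passed from the arrays compared alone (adjusted p 0.0247) and without either dying array (adjusted p 0.0385). Over 12 settings this difference ran from -1.29 to -0.12, with adjusted p up to 0.881. Dying pools differed from sham by 0.28 (adjusted p 0.734), and by -0.68 without dying pool 1 and 1.23 without dying pool 2.

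The 2 dying pools thus differed from each other in opposite ways for different astrocyte genes. Dying pool 2 had 5.75-fold more Gfap signal and 7.38-fold more Vim signal than dying pool 1. Dying pool 1 had 3.75-fold more Agt and 3.52-fold more Gja1. For Aqp4 and the Glul RefSeq probe the dying pools were closer, 1.33-fold and 1.43-fold apart. The surviving pools were 1.79-fold apart for Gfap, 1.36-fold for Vim, 1.34-fold for Agt and 1.21-fold for Gja1. The sham pools were 1.12-fold apart for Gfap, 1.03-fold for Agt and 1.75-fold for Gja1, and for Vim 1 of them was below background.

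The 10 Gfap spots ran from 0.30 to 1.60 in dying pool 1 and from 3.44 to 3.73 in dying pool 2. The Agt spots ran from 7.43 to 8.52 and from 5.60 to 6.66, and the lowest Gja1 spot of dying pool 1 was also above the highest of dying pool 2, 3.68, so for all 3 genes no spot of either pool reached the range of the other. Within arrays, the SD of log2 spot values was 0.09 to 0.47 for Gfap, 0.06 to 0.39 for Agt, 0.06 to 0.56 for Gja1, 0.11 to 0.33 for Aqp4 and 0.18 to 0.47 for S100b. In naive pool 1, 2 of the Gfap spots were non-uniform and 8 were used. Spots on an array share 1 amplified RNA, so their spread is that of the spotting and hybridisation and not that of rats or pools.

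**Figure D3:**
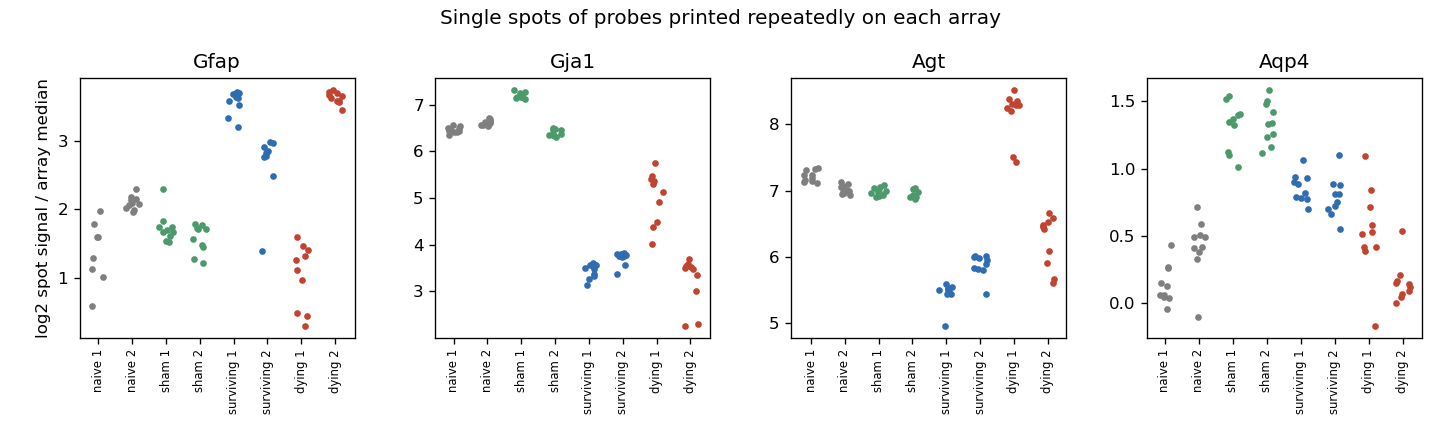
Log2 signal over the array median of the single spots of the Gfap, Gja1, Agt and Aqp4 probes, with 1 point for each spot and arrays along the horizontal axis. The spots of the 2 dying pools do not meet for Gfap, Gja1 and Agt, with Gfap higher in dying pool 2 and the others higher in dying pool 1.

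Side by side, the differences from sham, which share the sham arrays, were 1.49 in surviving and 0.70 in dying pools for Gfap. In the same order they were 2.03 and 1.76 for Vim, -0.64 and -2.01 for the Glul RefSeq probe, and -3.23 and -2.61 for Gja1. For Aqp4 they were -0.51 and -0.97, and for Agt -1.29 and 0.28. Those of Vim take sham pool 2 at its measured level, which was not well above background. With the scaling, the signs of Glul and Aqp4 in surviving pools change, and Aqp4 in dying pools turns to 0.033 with the probes above background. Over the settings counted, Gfap ran from 1.48 to 2.46 in surviving and 0.69 to 1.70 in dying pools, Vim from 1.44 to 3.01 and 1.29 to 2.76, the Glul RefSeq probe in dying pools from -2.02 to -0.82, Gja1 from -3.23 to -1.95 and -2.62 to -1.43, and Agt in dying pools from 0.27 to 1.42. The means of the filament genes were thus above sham in both injured groups, uncalled and with dying pools overlapping sham, while Gja1 and S100b were below it. Groups did not overlap for 7 of the 7 genes in surviving against sham pools (over all tested probes 77.0% did not, and 18.9% were called), for 4 of 7 in dying against sham pools (76.7% and 44%), for 3 of 7 in surviving against dying pools (52.2% and 0%) and for 2 of 7 in sham against naive pools (44.1% and 0%). With 2 arrays in each group such gaps were common, and these counts are a description. Sham and naive pools differed by -0.10 for Gfap, 0.42 for the Glul RefSeq probe, 0.26 for Gja1, -0.46 for S100b and -0.16 for Agt, with adjusted p of 0.885 or more. The S100b difference takes sham pool 2 at its measured level, which was not well above background. The sign for Gja1 turned to -0.026 with the 75th percentile and -0.20 with quantile normalization, and that for Glul to -0.031 with the latter. Gfap turned to 0.24 and S100b to 0.29 without naive array 2, and Gja1 to -0.14 without sham array 1. Vim was not tested there.

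**Figure D4:**
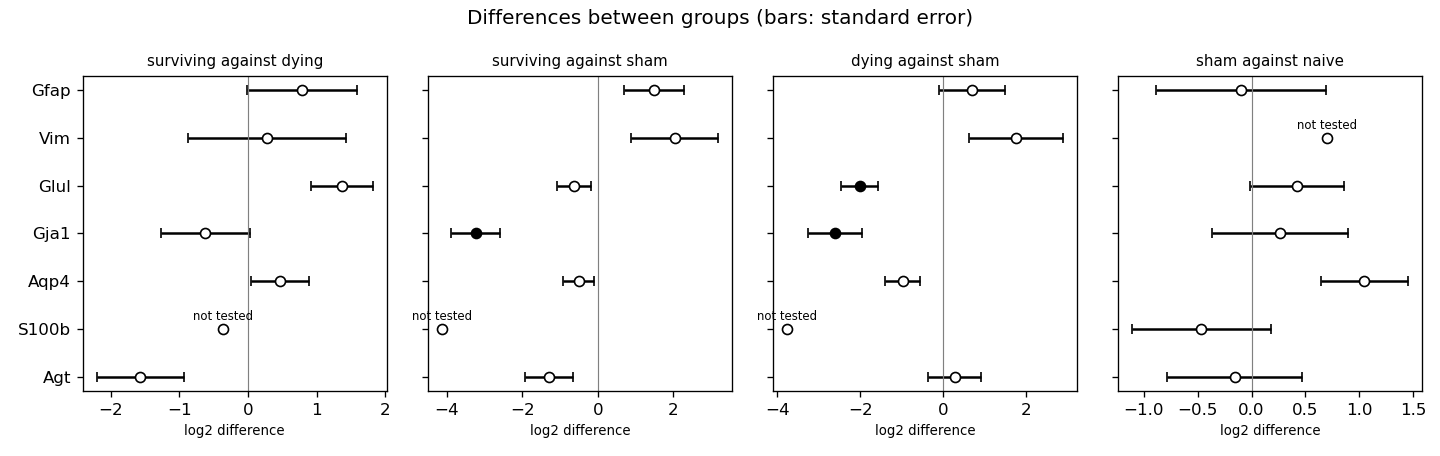
Log2 difference between group means for the brightest probe of each of the 7 genes in 4 comparisons, with bars of 1 SE from limma and filled points where the adjusted p was under 0.05. The calls are Gja1 in both injured groups against sham and Glul in dying against sham pools. Signs change with the scaling for Glul and Aqp4 in surviving against sham pools and for Aqp4 in dying against sham pools. They also change for Glul and Gja1 in sham against naive pools.

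Of 28 other astrocyte genes, 26 had a probe. In surviving against sham pools 2 were called higher (Fgfr3 and S1pr1) and 3 lower, among them Gpr37l1, of 25 tested, with a median of -0.96 over the 26. In dying against sham pools the same 2 were higher and 4 lower, among them Gpr37l1 and Slc1a2, with a median of -0.42, and in the other comparisons 0 were called. Beside the medians over all tested probes, -0.43 and -0.46, the first median was lower and the second about level. Gpr37l1, a receptor, was called lower in dying pools (adjusted p 0.00346); it was not well above background in dying pool 2, and without that pool the difference was -3.71. Slc1a2, the glutamate transporter GLT-1, was 4.91-fold lower in dying pools (adjusted p 0.00924). In surviving pools Fgfr3 was at least 3.23-fold higher (adjusted p 0.0186) and S1pr1 at least 1.41-fold (adjusted p 0.0135), both below background in sham pools. Both entered this test through the surviving pools alone, so these p-values rest on sham readings below background. The calls of Fgfr3 and S1pr1 ended without any 1 of the sham or surviving arrays, at 2.77 to 3.87 and 2.43 to 2.65, and that of Slc1a2 without sham array 1, at -1.97; that of Fgfr3 also ended with quantile normalization, at 3.91. Normexp without outlier spots ended all 3 calls, at 1.23, 0.53 and -1.44, and the limit for Fgfr3 does not hold there. Over all tested probes 18.9% were called in surviving and 44% in dying pools against sham. The summed level of the 25 with a usable spot everywhere was 8056 and 11838 in naive pools and 12780 and 8354 in sham pools. It was 5515 and 6252 in surviving pools, and 18213 and 7902 in dying pools. Apoe, the largest part, is also expressed by microglia. Without it the sums were 4995 and 7118 in naive pools and 8529 and 5566 in sham pools. They were 2878 and 3498 in surviving pools, and 8950 and 3776 in dying pools.

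Of 21 genes known to be raised in reactive astrocytes 19 had a probe, and the mean of 17 of these was above sham in surviving pools and that of 17 in dying pools. Of 17 tested 8 were called higher and 0 lower in surviving against sham pools, and 12 higher and 0 lower in dying against sham pools, where 18.9% and 44% of all tested probes were called. Their medians were 1.96 and 3.42, beside -0.43 and -0.46 over all tested probes. On each sham array 15 of the 19 were well above background. Some of the 17 tested therefore entered through the injured pools alone and could hardly be called lower. Of those named, in dying against sham pools Lcn2 was 38.9-fold higher (adjusted p 0.00152), Timp1 26.9-fold (adjusted p 0.00438), the filament gene Nes 22-fold (adjusted p 0.000856), S100a6 18.9-fold (adjusted p 0.0031) and Cd44 17.9-fold (adjusted p 0.00713, ended without sham array 1, at 4.21 log2 units). The summed level, with Osmr below background on all arrays, was 155 and 214 in naive pools, 499 and 352 in sham pools, 2617 and 1907 in surviving pools, and 5620 and 4167 in dying pools. Unlike Gfap and Vim, this sum was high in dying pool 1 as well. Many of these genes are also expressed by microglia, vessels or injured neurons. Sham pools were above naive pools for 16 of the 19, with 0 called of 16 tested and 8 at an unadjusted p under 0.05, beside 4.82% of all tested probes; their median was 0.92, beside 0.37 over all tested probes.

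Markers of other cells moved with some of these results, and their part in them was not tested. Microglia and macrophage genes, 17 of 17 with a probe, 0 of them below background on all arrays, summed to 378 and 715 in naive, 766 and 623 in sham pools, 752 and 815 in surviving, and 3822 and 2055 in dying pools. In dying against sham pools 8 of 14 tested were called higher (of all tested probes 44% were called), among them Tyrobp, a microglial adaptor protein, at 12.2-fold (adjusted p 0.00289), and in surviving against sham pools 1 of 16 was called, Ctss, lower (18.9% of all). Endothelium and pericyte genes, 11 of 13 with a probe, with Tek below background throughout, summed to 99.4 and 137 in naive, 149 and 121 in sham pools, 89.7 and 84.2 in surviving, and 406 and 156 in dying pools. Of 9 tested, 2 were called higher in dying against sham pools (44% of all tested probes were called), Flt1 at least 2.38-fold (adjusted p 0.00504) and Vwf 3.84-fold (adjusted p 0.0186), and Flt1 was also called higher in surviving against sham pools; Vwf was not called without either sham array or dying array 1 (1.44 to 2.17 log2 units), nor Flt1 without sham array 1 (2.98). Flt1 was not well above background in either sham pool, so it entered the tests through the injured pools alone, and its calls rest on sham readings below background. Flt1 was called in 9 of 11 settings, with differences from 0.81 to 4.10, the smallest with normexp without outlier spots, where the limit does not hold. Both sums were highest in dying pool 1, the pool in which Agt was high and Gfap low.

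Oligodendrocyte genes, 14 of 15 with a probe and Ugt8 below background on all arrays, summed to 1804 and 1591 in naive, 2537 and 2312 in sham pools, 438 and 497 in surviving, and 1207 and 730 in dying pools. Of these, 5 of 13 tested were called lower in surviving against sham pools and 6 of 12 in dying against sham pools, with 0 higher, beside 18.9% and 44% of all tested probes called in either direction; Mal was 13.1-fold lower in dying pools (adjusted p 0.00188), with differences from -3.72 to -2.17 over 12 settings. The calls of Opalin, Aspa and Mog in surviving pools ended without any 1 of the sham or surviving arrays, at -4.02 to -3.27, -3.68 to -2.50 and -3.10 to -2.88; over the settings they were called in 11, 8 and 9 of 12. These lower levels were in the same pools as those of Gja1 and S100b. Interneuron genes, 8 of 8 with a probe, with Lhx6 below background throughout, summed to 401 and 479 in naive, 439 and 474 in sham pools, 183 and 171 in surviving, and 732 and 178 in dying pools. Single genes made up much of the sum in dying pool 1: Sst read 8.50 there and 4.68 in dying pool 2, Vip 7.85 and 5.55, and Pdgfrb of the vessel list 7.07 and 4.16, while Pvalb read 5.85 and 6.06. The median interneuron gene of dying pool 1 was at 5.24, beside 5.31 in sham pool 2, and the median vessel gene at 3.20, below the 3.40 to 3.77 of the uninjured pools. Of 7 interneuron genes tested, and beside the same shares of all probes, Gad1 was called lower in surviving against sham pools, and Gad1, at least 3.74-fold (adjusted p 0.00371), and Pvalb in dying against sham pools, the call of Pvalb being made in 5 of 12 settings and 3 of 8 runs without an array, with differences from -1.42 to -0.19. In dying pools Gad1 was not well above background, so it entered that test through the sham pools alone. Gad1 was called in 10 of 11 settings, the exception being normexp without outlier spots, at -0.57, and the limit above does not hold there. Between surviving and dying pools, Pdgfrb, Sst and Calb2 differed by -1.33, -1.76 and -0.61, and by 0.13, 0.15 and 0.15 without dying pool 1.

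Pyramidal neuron genes gave 1 call higher (Syn1) and 3 lower (Snap25, Ptk2b and Chgb) of 14 tested in surviving against sham pools, and in dying against sham pools the same calls with Stmn2 and Nrgn added to the lower ones. Chgb had a usable spot on 1 surviving and 1 dying array and Stmn2 on 1 dying array, so their calls each rest on 1 injured pool. Over all tested probes 18.9% were called in surviving and 44% in dying against sham pools. The call of Syn1 in surviving pools ended without any 1 of the sham or surviving arrays (1.83 to 2.86), and that of Stmn2 in dying pools without either sham array (-3.11 to -2.64). The call of Chgb in surviving pools was made in 2 of 7 runs without an array, the highest adjusted p being 0.205. Syn1 was not well above background in either sham pool, so it entered the tests through the injured pools alone, and its calls rest on sham readings below background. Its difference is a limit, at least 3.63-fold higher in surviving pools. Over the settings, Syn1 was called in 7 of 11, with measured differences from 0.73 to 3.32, the smallest under that limit, and Chgb in 6 of 11, from -2.54 to -1.43. The replicate block was among the settings that ended both calls, with a limma adjusted p of 0.0525 for Syn1. Snap25, a synaptic fusion protein gene, was 14.2-fold lower in dying than in sham pools (adjusted p 0.00501), with levels of 10.99 and 10.49 in sham pools, 8.89 and 7.25 in surviving, and 6.20 and 7.63 in dying pools. The median over the 15 pyramidal neuron genes was -1.90 in dying against sham pools, with 2 of them higher, and -0.21 in surviving against sham pools, with 6 higher. In dying pools neuronal and several astrocyte transcripts were thus lower together, and differences from sham are not a ratio of astrocytes to neurons. In surviving against dying pools, 0 genes of any of the 7 lists were called. Their medians there, beside 0.14 over all tested probes, were 1.19 for pyramidal neurons, with 13 of 15 genes higher, -1.45 for microglia, with 9 of 15 tested at an unadjusted p under 0.05 (5898 of 27393 of all probes), -0.83 for endothelium and pericytes, -0.74 for reactive and -0.38 for other astrocyte genes, -0.45 for interneurons and -0.22 for oligodendrocytes. Of Glul, cDNA probes A and B overlapped between these pools, with differences of -0.41 and 0.53. The differences of the Glul RefSeq probe and of Agt between these pools, neither called in the fit of all 8 arrays, were thus accompanied by those of neuron and microglia markers. Of those named, Kdr, Vwf, Pdgfrb, Vip and Sst passed without dying array 2, at -2.66, -2.40, -2.79, -3.27 and -3.67.

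**Figure D5:**
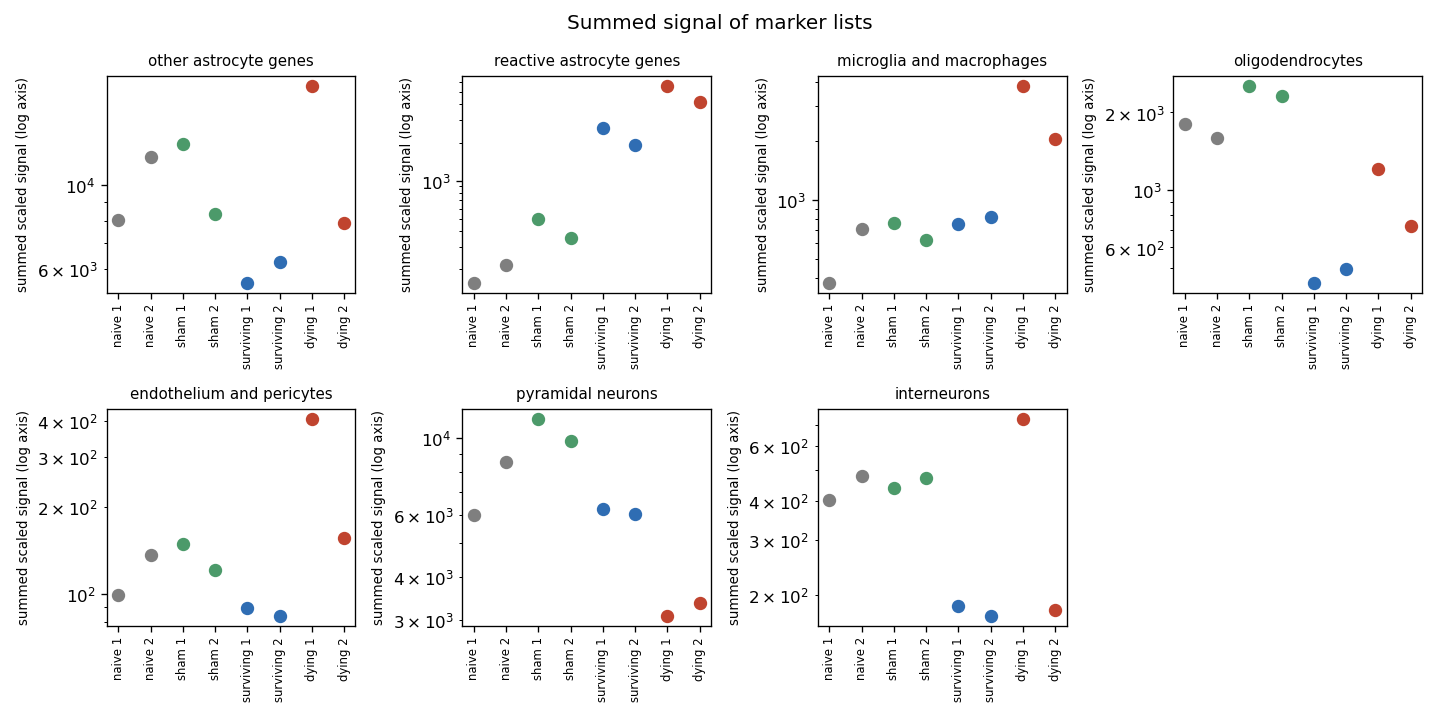
Summed signal over the array median, on a log axis, for the genes of each of 7 marker lists that had a usable spot on all 8 arrays, with 1 point for each array. Reactive astrocyte genes are higher in all 4 injured pools than in the uninjured ones, and oligodendrocyte genes lower. Dying pool 1 has the highest sum for microglia, endothelium, interneurons and other astrocyte genes. Without Apoe, the sum of other astrocyte genes in dying pool 1 is 8950, beside 8529 in sham pool 1.

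The genes most like Gfap, Agt and Glul in pattern were sought among probes well above background on all 8 arrays, 6616 for Gfap and Agt and 6614 for Glul, by Pearson's r over the 8 arrays. For Gfap they were Fst (r 0.959, Spearman's rho 0.762), Iqsec3 (0.948 and 0.952) and Fn1 (0.944 and 0.952). For Agt they were Nkx6-2 (0.980 and 0.833), Itih3 (0.976 and 1.0) and Mss4 (0.972 and 0.833), and for the Glul RefSeq probe Zdhhc6 (0.997 and 0.976), Osbp (0.996 and 0.976) and Nrn1 (0.994 and 0.881). The 8 points share 2 slides and 1 scaling, and the highest of many coefficients over 8 points are high by selection, so these are descriptions of likeness.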

How the data were processed

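Per the file headers, the deposited array files held spot signal made by Agilent Feature Extraction 9.1.3.1 from 1 colour: the processed intensity was background-subtracted, with no scaling between arrays. The authors' table of the same arrays had column medians of 0.131 to 0.282 (0.218 and 0.149 for naive, 0.131 and 0.149 for sham, 0.256 and 0.259 for surviving, 0.212 and 0.282 for dying arrays); of its values where the processed signal was at least 20, 99.9% or more lay within 0.05 log2 of that signal divided by 1 constant for each array; lower values were not compared so, and Spearman's rho over all probes was 0.975 to 0.997. At such signals no centring by gene was seen, direction does not arise, and 0 of its sample columns went unused. Control spots and non-uniform spots were dropped, the remaining spots averaged by probe, values divided by the array median, floored at 0.01 and put on the log2 scale. A probe counted as well above background where at least 50% of its spots did. All probes were fitted with limma 3.58.1 in R 4.3.3 over 8 arrays and 4 groups, with 4 residual degrees of freedom and Benjamini-Hochberg adjustment over each comparison; the pipeline was tested on simulated data. A gene is read from its brightest probe. Of the members' probes, 7 of 10 had their record in the reference table. Named genes are the 7 members, in each other list up to 5 called genes by size of change, or, where under 3 were called, the 3 with the largest difference between surviving and dying pools, and the 3 genes most like Gfap, Agt and Glul. Members and lists were chosen with earlier results of these data known. Alternatives were other scalings, background corrections, filters, blocks, fits and leaving out each array.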

Additional observations from a re-analysis of the deposited data

How the results depend on the processing

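With 2 pools a group, a lone array left in a group was assumed to vary like the other groups. Probes near background are bounds. Slide and injury cannot be told apart against sham. Each slide held 2 whole groups, so within a slide the slide as a block repeats the main fit by construction. Its member median between surviving and dying pools, 0.28, is therefore no further check. It is counted among the 14 settings for surviving against dying and the 13 for sham against naive. Where no cause is named, the cause was not tested.

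With replicate numbers as a replicate block, calls were 0 between surviving and dying pools, 3488 and 10405 for surviving and dying pools against sham, and 0 between sham and naive pools, with 0, 2, 4 and 0 member probes. The labels do not say that the numbers pair pools, and crossed pairing of surviving and dying arrays, added after seeing the data, also gave 0 calls.

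Planned normexp background correction was upset by background outlier spots, among them 2 on naive array 1 and 3 on dying array 1 whose local background exceeded their signal by more than 100: the 5th percentile of corrected values was 684 and 391 on these arrays, and 59.6 and 57.5 with outliers removed. As planned it gave 0 calls against sham in either group, with 0 member probes, and a member median of 0.087 (surviving against sham). Signs turned for surviving against dying in Gja1 (0.73), Pdgfrb (0.24) and Calb2 (0.87), for surviving against sham in Aqp4 (0.087) and Glul (0.44), for dying against sham in Agt (-0.091), and for sham against naive in Gfap (0.056) and Agt (0.81). Without background outlier spots, a setting added after seeing the data, normexp gave 2569 and 7242 calls against sham; the member median was 0.088 for surviving against sham and -0.19 for sham against naive, with Aqp4 at 0.088 and Glul at 0.44 in the former and Glul at -0.067 and Gja1 at -0.19 in the latter.

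For surviving against sham, the member median was 0.14 with the 75th percentile, -0.19 with quantile normalization, 0.33 with the probes above background and -1.29 as the mean over all probes of a gene. Aqp4 turned to 0.27 with the 75th percentile and 0.46 with the probes above background, and Glul to 0.14, 0.19 and 0.33 with the 75th percentile, quantile and the probes above background. Member probes called were 1 with quantile normalization (3712 of 26909 over all probes) and 6 from the arrays compared alone, where 12168 probes were called with another variance estimate. Requiring signal on all arrays of both groups left 3109 calls here and 7157 for dying against sham, from fewer probes tested. For dying against sham, member probes called were 1 with quantile (9267 of 25628 over all probes) and 1 with the probes above background (12190 of 25628), where Aqp4 turned to 0.033. For sham against naive, quantile normalization gave 1 call and the arrays compared alone 118; the member median was -0.19 with quantile and -0.16 with the probes above background, Glul was -0.031 and -0.0014, and Gja1 was -0.026 with the 75th percentile, -0.20 with quantile and -0.16 with the probes above background.

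Leaving out each array in turn gave 0 to 6002 calls and 0 to 2 member probes between surviving and dying pools. Against sham it gave 253 to 8557 calls and 1 to 5 member probes for surviving pools, and 3048 to 13435 and 1 to 4 for dying pools. Between sham and naive pools it gave 0 to 22 calls, without member probes, where the member median ran from -0.18 to 0.58. For surviving against dying, Gfap ran from -0.47 to 2.05, Gja1 from -1.53 to 0.28, Vim from -1.16 to 1.72, Pdgfrb from -2.79 to 0.13, Sst from -3.67 to 0.15 and Calb2 from -1.37 to 0.15. For dying against sham, Gfap ran from -0.57 to 1.96 and Agt from -0.68 to 1.23. For sham against naive, Gfap ran from -0.43 to 0.24, S100b from -1.21 to 0.29 and Gja1 from -0.14 to 0.66.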
